A study of Aspergillus nidulans with 6 samples.

Results

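Polyketide gene clusters of the filamentous fungus Aspergillus nidulans hold, beside the gene for the synthase, genes for tailoring enzymes, transporters and regulators, and these non-backbone genes are described here. They were listed by locus number for 7 clusters, those of sterigmatocystin, monodictyphenone, orsellinic acid, the benzaldehyde derivatives (dba), asperfuranone, aspyridone and asperthecin. The list holds 59 genes. AN7813, a sterigmatocystin gene, was not analysed here, and the other 58 had a row in every count file, out of 10983 features in each file. The files hold 18 sterigmatocystin, 11 monodictyphenone, 4 orsellinic acid, 10 dba, 6 asperfuranone, 7 aspyridone and 2 asperthecin members. RNA was sequenced from 3 libraries of strain LO8158, labelled mcrA- and McrA-deleted, and 3 of strain LO1362, labelled mcrA+ and here called WT. The labels add for LO8158 that its mutation switches on the production of secondary metabolites. Both strains were grown from 1000000 spores in 150 ml of liquid glucose minimal medium at 37 °C for 1 day, and both cultures received uridine, uracil, pyridoxine and riboflavin. Each genotype is 1 strain, and any other way in which LO8158 and LO1362 differ cannot be told apart from the effect of the deletion. The labels do not say that the replicates came from separate cultures, so p values measure only the spread between these libraries.

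In such clusters the genes of one pathway lie side by side. The synthase builds the carbon skeleton, and tailoring enzymes such as cytochrome P450 monooxygenases, reductases and dehydrogenases then oxidise, reduce, cleave or methylate it. Many clusters also carry their own transcription factor, often of the zinc cluster type, without which the pathway stays silent; AflR of the sterigmatocystin cluster is the classic example. Sterigmatocystin is a toxin and a precursor of aflatoxin in related fungi, and several of the other clusters are known as silent or nearly silent under common laboratory conditions. The product of mcrA is known to hold back several such pathways, and the comparison asks which cluster transcripts differ in level once mcrA is deleted.

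Total counts ranged from 3374534 to 4926520 in the mcrA-deleted libraries and from 4739323 to 6051839 in the WT libraries. Levels are given as CPM, the counts of a feature relative to its library's total scaled by the trimmed mean of M-values (TMM), on which 1 count was worth 0.165 to 0.286 CPM. A gene with 0 counts in all 3 libraries of a group may still have had up to 3 counts, 0.222 CPM in the mcrA-deleted group and 0.203 CPM in WT. This limit and the intervals below cover counting error only. WT replicate 3 stood apart from the other libraries on the second principal component (-38.0, 10.5% of the variance), and many of the results that move with it are given without it as well. The feature of mcrA, which background knowledge places at AN8694, had 280, 422 and 273 counts in the mcrA-deleted libraries and 674, 903 and 655 in WT. The groups did not overlap (log2 fold change -1.06, SE 0.168; adjusted p = 0.00468 in edgeR), but the feature was not empty in the mcrA-deleted libraries. These are bulk cultures, in which a change in the share of cells of one kind and a change of RNA per cell cannot be told apart.

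The 58 genes were weakly transcribed in both strains. Together they had 375, 800 and 783 counts in mcrA-deleted replicates 1 to 3, against 160, 309 and 266 in WT replicates 1 to 3. In CPM this was 107, 156 and 160 in the mcrA-deleted libraries and 34.9, 51.1 and 64.4 in WT, so that every mcrA-deleted library lay above every WT library. Of the 58 genes, 16 had 0 counts in all 6 libraries (27.6%), against 12.3% of all features. Another 20 had 1 to 9 counts over the 6 libraries, and 22 had at least 10. At least 1 count was found for 24, 33 and 32 genes in the mcrA-deleted libraries and for 12, 13 and 19 in WT. With every library thinned to the smallest total, these numbers were 24, 30 and 31 in the mcrA-deleted libraries and 11, 12 and 16 in WT, and the groups still did not overlap. Matching numbers over all features were not taken, so these numbers do not set the list apart.

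**Figure D1:**
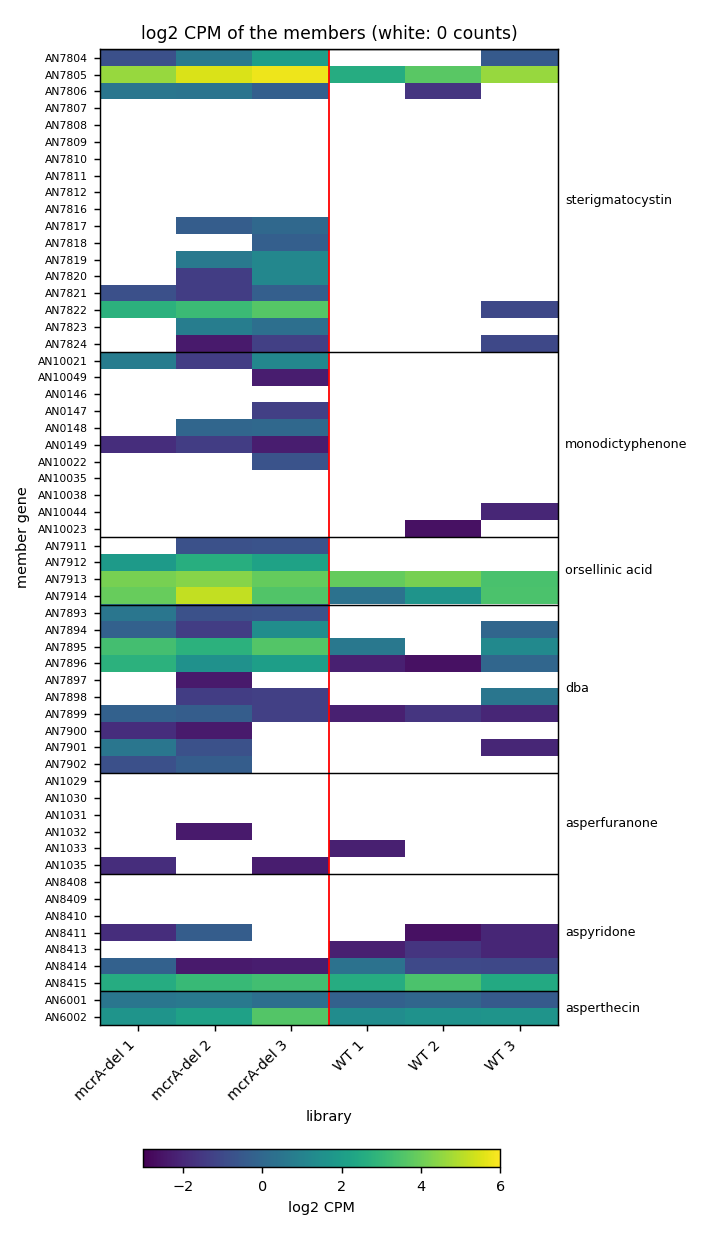
Level of each of the 58 genes (rows, grouped by cluster) in each library (columns, mcrA-deleted left of the vertical line and WT right of it), as log2 CPM, with white for 0 counts. A block of 7 sterigmatocystin genes is white in all 6 libraries, and most coloured cells of the sterigmatocystin, monodictyphenone and dba blocks stand on the mcrA-deleted side.

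Pooled over the libraries of a group, 36 of the 58 genes had a higher CPM in the mcrA-deleted group, 6 a lower one and 16 none in either (62.1% higher, against 47.7% of all features). Of all 10983 features, 5238 were higher, 4391 lower and 1354 had no counts in either group. Both percentages include the genes without counts, which were more frequent among the members. In 13 genes every mcrA-deleted library lay above every WT library. That share, 22.4%, was close to the 20.7% of all features with the same order, so the count of such genes does not set the list apart. In 1 gene, the aspyridone gene AN8413, every mcrA-deleted library lay below every WT library, with 0, 0 and 0 counts against 1, 2 and 1 in WT. Of 36 members with 0 counts in all WT libraries, 20 had at least 1 count in the mcrA-deleted group (55.6%), against 28.1% of the 1884 features with 0 counts in WT. At least 10 counts were reached by 7 of these 36 members (19.4%), against 6.42% of the 1884 features. Over the 1675 of these features that carry an AN number the shares were 30.7% and 7.22%. The reverse, counts in WT and 0 in the mcrA-deleted group, occurred in 4 members, none with more than 4 counts. No share over all features was taken for this reverse, nor for the order seen in AN8413. These 2 counts therefore do not set the list apart.

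Only 9 members (15.5%) had enough counts to be tested one by one, against 71.5% of all features. In the quasi-likelihood test of edgeR, with p values adjusted by the Benjamini-Hochberg method over all 7852 tested features, 4 of the 9 rose, 0 fell and 5 did not pass an adjusted p of 0.05. Of all tested features 16.1% rose and 13.7% fell. A member silent or nearly so in WT could pass the count filter solely on its mcrA-deleted counts. The 4 that rose had too few WT counts to pass on the WT libraries. AN7822 had 0, 0 and 2 there, AN7912 had 0 in each, AN7895 had 7, 0 and 10, and AN7896 had 1, 1 and 4. For this reason the 4 of 9 cannot be read against those shares. Without a count filter 42 members could be tested, of which 7 rose (16.7%) and 0 fell, while of all 9629 features in that fit 13.3% rose and 11.3% fell. The share of risers among members was thus near the background.

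**Figure D2:**
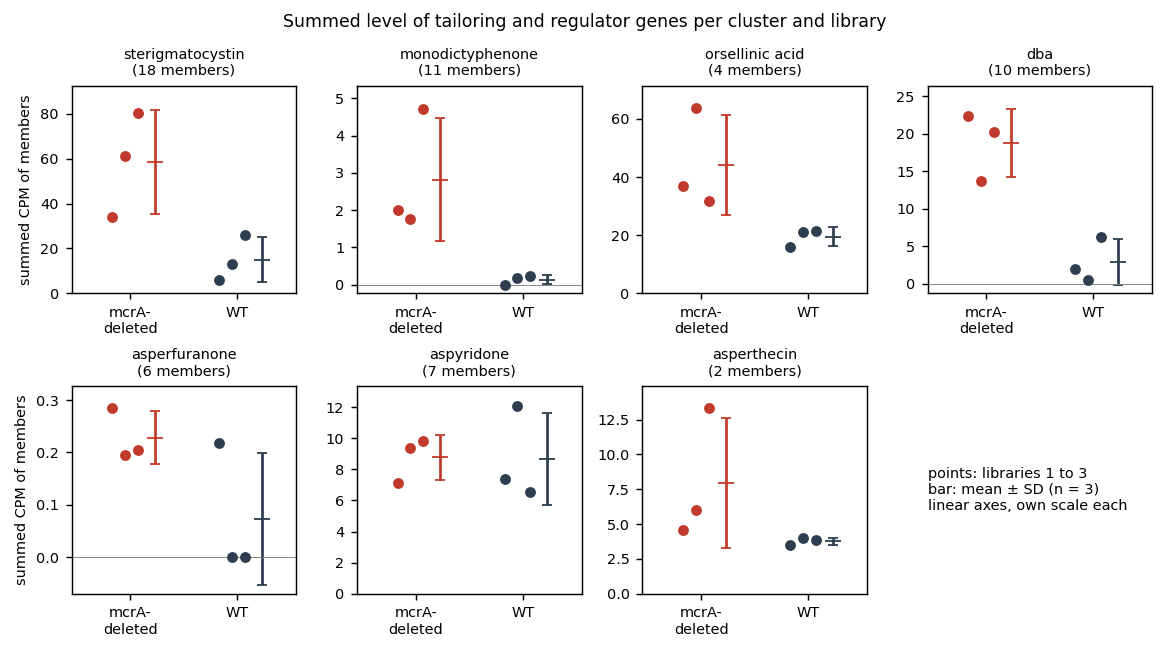
Summed CPM of the members of each cluster in each library (points, mcrA-deleted left, WT right), with mean ± SD (bars, n = 3). All axes are linear, each with its own scale. The groups are separate for the sterigmatocystin, monodictyphenone, orsellinic acid, dba and asperthecin sums and overlap for asperfuranone and aspyridone.

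Because most members had so few counts, counts were summed per cluster and library. The sums of 5 clusters were higher in every mcrA-deleted library than in every WT library, and those of asperfuranone and aspyridone overlapped. Among all single features 20.7% showed that order, and no share was taken for sums of other genes. The sums carry no test, since the genes were listed with earlier results of these data known. The sterigmatocystin members had summed levels of 58.5 ± 23.2 CPM in the mcrA-deleted libraries and 15.01 ± 10.1 CPM in WT. Here and for all means below, ± gives the SD (n = 3 each). The sterigmatocystin ratio was 3.90. With 1 library left out it lay between 2.99 (without WT replicate 1) and 6.12 (without WT replicate 3). The dba members had 18.7 ± 4.53 CPM in the mcrA-deleted libraries and 2.92 ± 3.02 CPM in WT. The dba ratio was 6.42, and 15.25 without WT replicate 3, which held 26 of the 38 WT counts. The orsellinic acid members had 44.1 ± 17.2 CPM in the mcrA-deleted libraries and 19.5 ± 3.15 CPM in WT, a ratio of 2.26. A single gene carried much of most sums, as described next for each cluster.

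In the sterigmatocystin cluster (chromosome IV, 2737333 to 2790165, coordinates of the files), members at both ends of the gene row had counts and those in its middle had none. The 7 members from AN7807 to AN7812 and AN7816 had 0 counts in all 6 libraries. This stretch also holds the fatty acid synthase genes AN7814 and AN7815, which are not members and were not at 0. AN7814 had 102 counts over the mcrA-deleted group and 41 over WT, and AN7815 had 5 and 4. To its right, the 8 members from AN7817 to AN7824 together had 26, 71 and 104 counts in the mcrA-deleted libraries and 0, 0 and 4 in WT. Each of the 8 had counts in the mcrA-deleted group and 2 had counts in WT. To its left, AN7804, AN7805 and AN7806 together had 93, 243 and 288 counts in the mcrA-deleted libraries and 27, 80 and 103 in WT. These 3 stretches were delimited after their values were seen.

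AN7822 was the sterigmatocystin member that rose. It had 24, 45 and 61 counts in mcrA-deleted replicates 1 to 3 and 0, 0 and 2 in WT replicates 1 to 3. All mcrA-deleted libraries were high, and both WT counts lay in replicate 3. Levels were 9.38 ± 2.86 CPM in the mcrA-deleted libraries and 0.162 ± 0.280 CPM in WT (adjusted p = 0.00240, edgeR's quasi-likelihood test). The ratio of pooled counts per library size was 71.0, with an exact binomial 95% interval of 19.3 to 593. It was 41.9 (11.4 to 350) without WT replicate 2. Without WT replicate 3 the WT count was 0, and the fold against a limit of 3 counts was 34.1. That fold leaves out the counting error of the mcrA-deleted counts. The call held whichever library was left out (6 of 6).

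AN7805 was by far the most abundant member of the cluster and made up 70.1% of its counts in the mcrA-deleted group and 95.8% in WT. It had 24.6, 44.4 and 54.1 CPM in the mcrA-deleted libraries and 5.89, 12.9 and 24.2 CPM in WT. The lowest mcrA-deleted library lay just above WT replicate 3. Its log2 fold change was 1.53 (SE 0.488) with an adjusted p of 0.0506 in edgeR's quasi-likelihood test, which did not pass. The adjusted p was 0.0109 without WT replicate 3, where the log2 fold change was 2.11 (1.16 to 2.11 over the libraries left out). With mcrA-deleted replicate 1 left out instead it was 0.0428, within a range of 0.00822 to 0.146 over all alternatives. With all 6 libraries kept it also passed with the replicate number in the model, with DESeq2, with library size alone and without the count filter, so the call depended on the processing as well as on the libraries. Without AN7805, the other 17 members had 33, 86 and 128 counts in the mcrA-deleted libraries against 0, 2 and 7 in WT, and the ratio of their summed levels was 25.9. Without WT replicate 3, which held 7 of the 9 WT counts, that ratio was 105.7 on 2 remaining WT counts (pooled ratio 97.2, counting interval 26.6 to 807), and it was 17.2 without WT replicate 1. Per kilobase of feature, levels in the mcrA-deleted libraries were 30.6 CPM for AN7805, 10.5 CPM for AN7822 and 1.35 CPM for AN7806. The neighbours AN7804 (2, 8 and 20 counts against 3 over WT) and AN7806 (5, 7 and 4 against 2 over WT) were not tested. AN7806 is known as stcU, a reductase gene late in the pathway.

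The pathway regulator aflR (AN7820) had 0, 2 and 11 counts in mcrA-deleted replicates 1 to 3 and 0 in all WT libraries. Its feature overlaps that of AN7821 at one end, so its counts are uncertain to that extent. Its neighbour AN7819 had 0, 8 and 11 counts in the mcrA-deleted libraries and AN7823 had 0, 9 and 6, each with 0 in all WT libraries. The 3 genes share a pattern in which mcrA-deleted replicate 1 is empty, as it is for AN7817 and AN7818. That library was also the shallowest of the 6, and the part of depth in this was not tested. aflR, AN7819 and AN7823 did not pass the count filter. Without it, adjusted p values were 0.120 for aflR, 0.0701 for AN7819 and 0.0796 for AN7823 (edgeR's quasi-likelihood test).

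The monodictyphenone members (chromosome VIII, 4435955 to 4460546) had almost no counts in WT. Summed over the 11 genes there were 7, 9 and 23 counts in the mcrA-deleted libraries and 0, 1 and 1 in WT. Levels were 2.82 ± 1.64 CPM in the mcrA-deleted libraries and 0.136 ± 0.124 CPM in WT, and the pooled ratio was 21.3 with a counting interval of 5.52 to 182. The ratio of mean levels, 20.8, was 13.85 without WT replicate 1, 34.15 without WT replicate 3 and 13.83 when mcrA-deleted replicate 3 was left out. Most of the counts came from the 2 regulator genes of the cluster. mdpA (AN10021), which encodes a regulator similar to the AflR partner of aflatoxin clusters, had 6, 2 and 11 counts in the mcrA-deleted libraries and 0 in WT. mdpE (AN0148), a zinc cluster transcription factor, had 0, 5 and 5 counts in the mcrA-deleted libraries and 0 in WT. Together they held 29 of the 39 counts of the mcrA-deleted group. The other 9 members, tailoring genes for the most part, had 10 counts over the mcrA-deleted group and 2 over WT. None of the 11 passed the count filter. Without the filter mdpA was called higher (adjusted p = 0.0366, edgeR's quasi-likelihood test; 0.0135 by the DESeq2 Wald test), and mdpE was not (0.101 and 0.223).

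The synthase gene of the same cluster, mdpG (AN0150), had a higher level per length than its most abundant member, mdpA. It had 9.44, 7.80 and 15.8 CPM in the mcrA-deleted libraries and 2.62, 2.15 and 0.727 CPM in WT, and it rose by 2.55 on the log2 scale (SE 0.469; adjusted p = 0.00774 in edgeR). Per kilobase of feature, mdpG stood at 1.93 CPM and mdpA at 0.698 CPM in the mcrA-deleted libraries. In WT mdpG stood at 0.321 CPM per kilobase and mdpA at 0. The gene AN0149 had 1, 2 and 1 counts in the mcrA-deleted libraries, and AN0146, AN10035 and AN10038 had 0 in all 6 libraries.

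**Figure D3:**
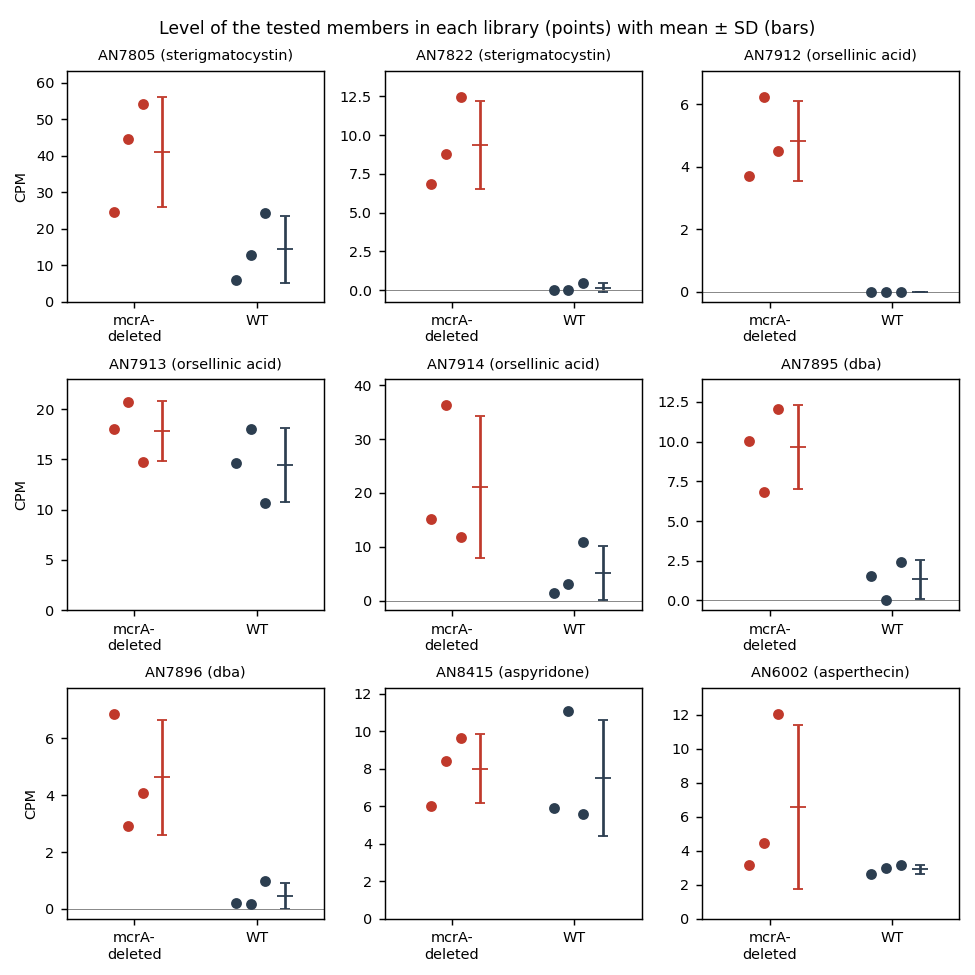
CPM of the 9 members that passed the count filter in each library (points, mcrA-deleted left, WT right), with mean ± SD (bars, n = 3) on linear axes of their own scale. AN7822, AN7912, AN7895 and AN7896 are low or at 0 in WT and present in all 3 mcrA-deleted libraries, while AN7913, AN8415 and, narrowly, AN6002 overlap between the strains.

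The 4 orsellinic acid members (chromosome II; cluster 207766 to 222276) included a gene called higher and a gene with overlapping levels. orsC (AN7912), which encodes a tyrosinase-like protein, had 13, 32 and 22 counts in the mcrA-deleted libraries and 0 in all WT libraries. Against a WT limit of 3 counts it was 24.4-fold higher in the mcrA-deleted group, or 14.4-fold without WT replicate 2. These folds leave out the counting error of the mcrA-deleted counts. The gene was called higher (adjusted p = 0.00327, edgeR's quasi-likelihood test), and the call held whichever library was left out (6 of 6). Its neighbour orsB (AN7911) had 0, 3 and 3 counts in the mcrA-deleted libraries and 0 in WT. orsD (AN7913), in contrast, was transcribed in both strains, with 18.0, 20.7 and 14.7 CPM in the mcrA-deleted libraries and 14.6, 18.0 and 10.7 CPM in WT. These values overlapped (log2 fold change 0.30, SE 0.243; adjusted p = 0.388 in edgeR).

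orsE (AN7914), the last gene of the row, had 15.2, 36.3 and 11.9 CPM in the mcrA-deleted libraries and 1.31, 3.14 and 10.9 CPM in WT. WT replicate 3 came close to mcrA-deleted replicate 3, and replicate 2 was the highest of the mcrA-deleted libraries. The log2 fold change of 2.09 (SE 0.722) did not pass (adjusted p = 0.0647, edgeR's quasi-likelihood test). With all 6 libraries kept, orsE passed by the DESeq2 Wald test (adjusted p = 0.0202) and in edgeR with library size alone (0.0329). Without WT replicate 3 its log2 fold change was 3.19 with an adjusted p of 0.0101 in edgeR. Without mcrA-deleted replicate 2 it was 1.42 with an adjusted p of 0.227. These were the ends of the range over all alternatives. orsD and orsE overlap at their ends and run on opposite strands, and reads from the overlap cannot be assigned to one of them with certainty. orsD made up 39.4% of the counts of the 4 genes in the mcrA-deleted group and 75.9% in WT, and without it the ratio of summed levels was 5.14. This ratio was 11.8 when WT replicate 3 was also left out, and between 3.50 and 6.05 with any other library left out. Per kilobase of feature the order in the mcrA-deleted libraries was orsE (14.2 CPM), orsD (8.72 CPM), orsC (2.86 CPM) and the synthase gene orsA (AN7909; 0.374 CPM).

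The dba cluster (chromosome II, 163599 to 194381) showed its higher levels at its left end. The 4 members from AN7893 to AN7896 together had 67, 55 and 95 counts in the mcrA-deleted libraries and 8, 1 and 18 in WT. The other 6, AN7897 to AN7902, had 11, 15 and 4 counts in the mcrA-deleted libraries and 1, 2 and 8 in WT, where the groups overlapped. This division was also made after the values were seen.

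dbaA (AN7896), the transcription factor gene of the cluster, had 24, 15 and 20 counts in the mcrA-deleted libraries and 1, 1 and 4 in WT. Levels were 4.63 ± 2.02 CPM in the mcrA-deleted libraries and 0.451 ± 0.450 CPM in WT, without overlap. It rose by 3.37 on the log2 scale (SE 0.660; adjusted p = 0.00967 in edgeR), and the call held whichever library was left out (6 of 6). Its pooled ratio was 10.8 (4.65 to 30.5) with all libraries and 7.61 (3.08 to 24.3) to 23.2 (6.15 to 196) with 1 left out. The highest was without WT replicate 3, which held 4 of the 6 WT counts. It was 1 of the 2 regulator genes among the 22 members with at least 10 counts in which no mcrA-deleted library was empty and no WT library exceeded any of them, the other being mdpA. Every mcrA-deleted library lay above every WT library in 20.7% of all features as well, so this order does not set the 2 genes apart.

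AN7895 was the most abundant dba member, with 10.01, 6.82 and 12.1 CPM in the mcrA-deleted libraries and 1.53, 0 and 2.42 CPM in WT. It rose by 2.96 on the log2 scale (SE 0.765; adjusted p = 0.0253 in edgeR). The call was less firm than that of dbaA: the adjusted p lay between 0.0151 and 0.0737 when 1 library was left out, and 4 of these 6 fits did not pass. The log2 fold change was 2.27 without WT replicate 2 and 3.77 without WT replicate 3. AN7893 had 5, 3 and 3 counts in the mcrA-deleted libraries and 0 in WT, and without the count filter was called higher by edgeR (adjusted p = 0.0466) but not by DESeq2 (0.0566). AN7894 had 3, 2 and 13 counts in the mcrA-deleted libraries and 0, 0 and 4 in WT. AN7898 had its highest count in WT replicate 3, with 0, 2 and 2 counts in the mcrA-deleted libraries and 0, 0 and 6 in WT.

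No member of the asperfuranone, aspyridone or asperthecin clusters was called in either direction. The 6 asperfuranone members (chromosome VIII, 1721737 to 1754354) had 1, 1 and 1 counts in the mcrA-deleted libraries and 1, 0 and 0 in WT, and no fold is given. Their regulator afoA (AN1029) had 0 counts in all 6 libraries. At this depth a level up to the limits given above could not have been seen. The aspyridone members (chromosome V, 387188 to 421171) had summed levels of 8.78 ± 1.43 CPM in the mcrA-deleted libraries and 8.67 ± 2.97 CPM in WT, a ratio of 1.01. AN8415 made up 91.7% of these counts in the mcrA-deleted group and 87.3% in WT. It had 6.01, 8.38 and 9.62 CPM in the mcrA-deleted libraries and 5.89, 11.1 and 5.57 CPM in WT, with a log2 fold change of 0.08 (SE 0.346; adjusted p = 0.875 in edgeR). The other 6 had 4, 5 and 1 counts in the mcrA-deleted libraries and 7, 6 and 4 in WT. Among them apdR (AN8414), the regulator of the cluster, had 3, 1 and 1 counts in the mcrA-deleted libraries and 6, 3 and 2 in WT.

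The 2 asperthecin members (cluster at chromosome I, 1540742 to 1549115) were detected in every library. aptB (AN6001), named nscB in the RefSeq table, had 5, 8 and 6 counts in the mcrA-deleted libraries and 4, 6 and 3 in WT. aptC (AN6002, nscC in the RefSeq table) had 3.15, 4.48 and 12.1 CPM in the mcrA-deleted libraries and 2.62, 2.98 and 3.15 CPM in WT. The groups overlapped narrowly, with mcrA-deleted replicate 1 (3.146 CPM) just below WT replicate 3 (3.149 CPM). Its high value in the mcrA-deleted group came from replicate 3 alone. The log2 fold change of 1.19 (SE 0.520; adjusted p = 0.123 in edgeR) did not pass, and it was 0.40 without that library. The ratio of the summed levels of both genes was 2.11, or 1.41 without mcrA-deleted replicate 3.

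The 6 regulator genes aflR, mdpA, mdpE, dbaA, afoA and apdR together had 33, 25 and 48 counts in the mcrA-deleted libraries and 7, 4 and 6 in WT. Of the 17 WT counts 11 belonged to apdR and 6 to dbaA. In the mcrA-deleted group dbaA alone gave 59 of the 106 counts. At least 1 count was present in the mcrA-deleted group for 5 of these 6, and in WT for 2 of them. Of the regulators with 0 counts in WT, aflR, mdpA and mdpE had counts in the mcrA-deleted group and afoA had none. Of all features with 0 counts in WT, 28.1% had counts in the mcrA-deleted group. With so few genes, these detections do not set the regulators apart. Only dbaA had enough counts for the test.

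The synthase genes of the same 7 clusters, 10 in all including both fatty acid synthase subunits of sterigmatocystin, served as the other genes of these pathways. Of these, 3 were tested, 1 rose (mdpG), 0 fell and 2 did not pass. The aspyridone synthase gene apdA (AN8412) had 26.6, 30.0 and 26.2 CPM in the mcrA-deleted libraries and 4.36, 9.59 and 20.1 CPM in WT (log2 fold change 1.30, SE 0.456; adjusted p = 0.0678 in edgeR) and did not pass. Without WT replicate 3 its adjusted p was 0.00496 (0.00496 to 0.187 over all alternatives) and its log2 fold change 1.95 (0.91 to 1.95 over the libraries left out). With all 6 libraries kept, apdA passed by the DESeq2 Wald test (adjusted p = 0.0358) and in edgeR with library size alone (0.0280). The fatty acid synthase gene AN7814 had 8.29, 5.65 and 9.01 CPM in the mcrA-deleted libraries and 1.09, 2.48 and 5.09 CPM in WT (log2 fold change 1.42, SE 0.500; adjusted p = 0.0684). It passed without WT replicate 3 (adjusted p = 0.0150, within 0.0150 to 0.189), where its log2 fold change was 2.04 (1.03 to 2.04 over the libraries left out). With all 6 libraries kept, AN7814 passed in edgeR with library size alone (adjusted p = 0.0354). The sterigmatocystin synthase gene stcA (AN7825), next to AN7824, had 15 counts over each group. orsA had 8, 17 and 9 counts in the mcrA-deleted libraries and 0, 0 and 3 in WT, and did not pass the count filter. Without the filter it was called higher (adjusted p = 0.0380 in edgeR and 0.0207 in DESeq2). The remaining ones were low in both strains. Summed over the 3 libraries of each group, AN7815 had 5 counts in the mcrA-deleted group and 4 in WT, dbaI (AN7903) 3 and 0, afoE (AN1034) 16 and 13, afoG (AN1036) 0 and 0, and aptA (AN6000) 12 and 12, in the same order of strains.

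**Figure D4:**
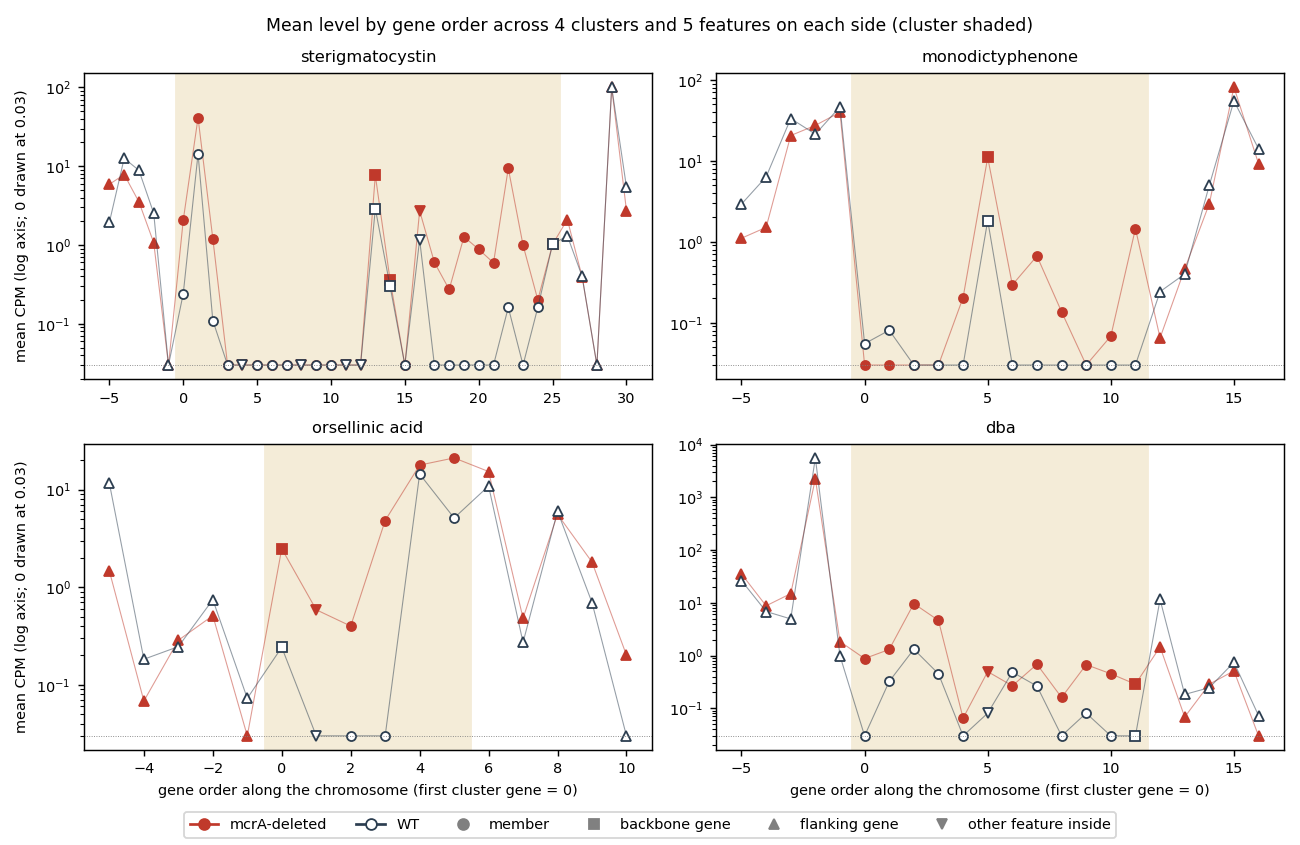
Mean CPM (log axis, with a level of 0 drawn on the dotted line) of the mcrA-deleted libraries (filled) and WT (open) by gene order across the sterigmatocystin, monodictyphenone, orsellinic acid and dba clusters (shaded) and the 5 features on each side. Filled symbols stand above open ones from AN7817 to AN7824 in the sterigmatocystin row and at the left end of the dba row. Members in the middle of the sterigmatocystin row are at 0 in both strains, around the fatty acid synthase genes, and outside the clusters filled symbols fall on either side of the open ones.

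Beyond the clusters, the 5 features on each side gave 65 flanking features, since the dba and orsellinic acid clusters share 5. Of these, 41 were tested, 6 rose (14.6%) and 7 fell (17.1%), close to the shares among all tested features. Next to the dba cluster on its right, AN7904 fell, with 5, 13 and 2 counts in the mcrA-deleted libraries and 50, 63 and 55 in WT (log2 fold change -2.95, SE 0.488; adjusted p = 0.00553 in edgeR). On its left, AN7891 rose by 1.62 and AN7892 fell by 1.32 on the log2 scale. Without WT replicate 3 their log2 fold changes were 2.32 and -0.86. The flanks of the monodictyphenone cluster held the falling genes AN10036 (log2 fold change -2.06, as for the values that follow) and AN10037 (-0.70) and the rising gene AN0144 (0.56). AN7798 (1.58) rose beside the sterigmatocystin cluster. AN1039 (0.52) and AN1028 (1.13) rose and AN1026 (-1.23) fell beside the asperfuranone cluster. AN6005 (2.12) rose and AN5995 (-0.54) fell beside the asperthecin cluster. AN6004, also beside it, fell, with 6066 counts over the mcrA-deleted group and 12691 over WT (adjusted p = 0.01999). With 1 library left out, AN7904, AN10036, AN1026 and AN6005 passed in all 6 fits, AN10037 in 5, AN7798, AN0144 and AN6004 in 4, AN1039 and AN5995 in 3, AN7892 and AN1028 in 2 and AN7891 in 1. With library size alone AN10037 and AN5995 did not pass (adjusted p = 0.0625 and 0.145). Another 9 features lie inside the cluster rows without being on either list. The only tested one, AN11872 in the aspyridone row, fell, with 55, 77 and 34 counts in the mcrA-deleted libraries and 137, 289 and 246 in WT (log2 fold change -1.87, SE 0.364; adjusted p = 0.00945).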

How the data were processed

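Polyadenylated RNA of mycelium was sequenced from 6 directional libraries, per the labels' protocols. The deposited files hold the authors' raw counts, 1 value for each feature, not normalized, per the file headers. CASAVA and HISAT (version 1) are named in the submitters' processing notes; the counting tool, whether it used strand, and the annotation are not stated in those notes or the labels. Each file holds 1 sample, with 0 unmapped columns. The submitters' gene numbers were kept. Gene names are those of the published cluster descriptions, known as background and not paired with the numbers in the files; the RefSeq table (assembly ASM1142v1) matched 58 members and gave another symbol than the locus tag for 6.

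Counts were fitted with edgeR 4.0.16 in R 4.3.3: TMM scaling, filterByExpr (minimum count 10), quasi-likelihood test (two-sided), a model of genotype alone, and Benjamini-Hochberg adjustment over all 7852 features that passed; 3131 did not. Fold changes are mcrA-deleted over WT. DESeq2 1.42.0 was an alternative. The fit was tested on simulated data, drawn for features that passed the filter with the same spread for each. That check does not cover the spread between these libraries or the members that were not tested. Folds against a group at 0 are taken against 3 counts over the group and leave out the counting error of the other group. Intervals are exact binomial (95%). Of the 58 members, 8 overlap another feature. Replicate libraries differed by 9.97 to 54.1 times sampling noise (chi-square per degree of freedom), so none was counted as a repeat of another. Named genes are mcrA, members that were tested, had at least 10 counts or are regulators, the backbone genes, and called flanking genes; other members named were chosen after their values were seen. The genes, lists and tests were chosen with earlier results of these data known. A planned search of promoters for a regulator motif was not run, as no promoter sequence was used here.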

Additional observations from a re-analysis of the deposited data

How the results depend on the processing

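Depth limits most members, since 49 of 58 had too few counts for the test. Alternatives were another scaling, another filter, another test, a replicate block and leaving out each library. The number of members called higher was 4 as reported, 7 without a count filter, 7 by the DESeq2 Wald test, 0 with a mean count of at least 50 (3 members tested) and 3 to 6 when 1 library was left out. With the replicate number as a block it was 5, AN7805 being added. The labels do not say what the numbers mark, and deviations of same-numbered libraries correlated at 0.263, -0.076 and 0.168. Of all genes, 758 to 1496 were called higher and 618 to 1171 lower when 1 library was left out, against 1265 and 1078 with all 6, and 639 were lower with library size alone, which moved the median log2 fold change by 0.171. Backbone genes called higher numbered 1 as reported, 3 with library size alone, 3 by DESeq2, 2 without a count filter, 0 with a mean count of at least 50 and 1 to 4 when 1 library was left out. Flanking genes called higher numbered 6 as reported, 3 with a mean count of at least 50 and 2 to 7 when 1 library was left out. The ratio of the summed dba level ranged from 4.54 (without WT replicate 2) to 15.25 (without WT replicate 3). The sterigmatocystin ratio of 3.90 was 25.9 without AN7805 (17.2 to 105.7 with 1 library also left out). The orsellinic acid ratio of 2.26 was 5.14 without AN7913 (3.50 to 11.8 with 1 library also left out). Without the 3 members that overlap another feature, which leaves AN7912 alone, it was 24.4 against a WT limit of 3 counts. Leaving out the most abundant member, with or without a library, was chosen after seeing the data. AN8415, which did not pass in any fit, had a log2 fold change of 0.08 with all libraries and of -0.09 to 0.48 with 1 left out. It was -0.07 without WT replicate 1 or without mcrA-deleted replicate 3, and -0.09 without WT replicate 3. The causes of these shifts were not tested.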
